A study of Mus musculus with 2 samples.

Results

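The OAS genes were followed across the cells of irradiated and untreated mouse tumors. The members were the 6 genes Oas1a, Oas1g, Oas2, Oas3, Oasl1 and Oasl2, chosen by their symbols among the 32285 genes of the count matrices, and all 6 were found. The tumors were grown in WT mice from MC38, a line of mouse colon carcinoma, and their live cells were sorted for CD45, the surface protein of leukocytes. The Control library came from tumors that received no radiation. The IR library came from tumors that received a single dose of 20 Gy and were taken 4 days later. Each library pooled several tumors, so there was 1 library per group, no replicate, and no test between the conditions. Every interval below is a 95% interval for counting error only and says nothing of the spread between animals or libraries.

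The OAS proteins detect double-stranded RNA in the cytosol. On binding it, the active enzymes join ATP into 2′-5′ linked oligoadenylates, a second messenger of the antiviral response. The genes are classic targets of type I interferon, a cytokine that irradiated tumors are known to produce. Oas1a and Oas1g encode short synthetases, Oas2 and Oas3 encode longer ones built from repeated synthetase units, Oasl2 encodes a ubiquitin-like member that keeps synthetase activity in mice, and Oasl1 encodes a ubiquitin-like member without it that is known to restrain translation of Irf7.

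In GRCm38 with the GENCODE vM21 annotation, all 6 genes lay on chromosome 5. Oas2 (ENSMUSG00000032690, 120730333 to 120749853), Oas3 (ENSMUSG00000032661, 120753098 to 120777661), Oas1g (ENSMUSG00000066861, 120876142 to 120887613) and Oas1a (ENSMUSG00000052776, 120896256 to 120907521) shared a stretch of 177.2 kb on the minus strand. Oasl2 (ENSMUSG00000029561, 114896936 to 114912234) and Oasl1 (ENSMUSG00000041827, 114923240 to 114937915) lay side by side on the plus strand. Oasl1 overlapped the gene Gm13822 and Oas2 overlapped Gm43068, both on the opposite strand. Oas1a and Oas1g were not fully separable by sequence. Of the 90-base windows of the Oas1a transcript, 43.4% occurred unchanged in Oas1g, and 23.8% did so within the last 400 bases, where these 3′ libraries read. The split of UMIs between Oas1a and Oas1g is therefore uncertain, while Oas2, Oas3, Oasl1 and Oasl2 shared no such window with another gene.

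The promoters were read from RefSeq (GRCm38.p6, 250 bases before to 50 after the start of the gene), which held 5 of the 6 members, Oas2 being the exception. They were searched on both strands for GAAA, any 2 bases and GAAA again, the core of the interferon-stimulated response element of genes induced by type I interferon. This motif was in 3 of the 5 promoters and in 3.44% of all 32851 promoters of the same length. Oas1a and Oas1g each held 2 overlapping matches, starting 20 and 18 bases before the start, and Oas3 held 1 match 75 bases before it. Oasl1 and Oasl2 held none in this window. The interferon-gamma type motif TTCNNNGAA, present in 8.3% of all promoters, was found only in Oas1a among the 5, starting 98 bases before the start. The sequences of the 3 promoters with the motif are shown beside that of Oasl1, the member with the largest ratios, with the motif in capitals, 5′ to 3′ along the gene's strand. They stand at chr5:120907476-120907775, chr5:120887564-120887863 and chr5:120777610-120777909 on the minus strand and at chr5:114922990-114923289 on the plus strand.
Oas1a: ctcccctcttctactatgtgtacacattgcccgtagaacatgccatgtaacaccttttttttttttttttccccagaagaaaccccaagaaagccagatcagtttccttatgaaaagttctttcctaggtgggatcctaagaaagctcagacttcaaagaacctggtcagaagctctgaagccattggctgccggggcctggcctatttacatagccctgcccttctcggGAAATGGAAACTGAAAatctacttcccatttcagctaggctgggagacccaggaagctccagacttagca
Oas1g: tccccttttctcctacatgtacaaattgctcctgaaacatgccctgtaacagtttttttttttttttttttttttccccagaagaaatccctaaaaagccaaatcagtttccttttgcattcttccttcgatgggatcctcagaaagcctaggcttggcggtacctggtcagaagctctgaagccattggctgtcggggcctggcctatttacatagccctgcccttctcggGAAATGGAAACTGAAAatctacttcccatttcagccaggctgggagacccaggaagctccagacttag
Oas3: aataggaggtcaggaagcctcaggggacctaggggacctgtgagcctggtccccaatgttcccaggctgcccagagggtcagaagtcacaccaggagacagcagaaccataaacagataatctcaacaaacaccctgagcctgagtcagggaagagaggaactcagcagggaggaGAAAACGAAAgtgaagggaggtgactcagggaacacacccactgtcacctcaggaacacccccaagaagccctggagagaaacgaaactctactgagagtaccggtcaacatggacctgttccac
Oasl1: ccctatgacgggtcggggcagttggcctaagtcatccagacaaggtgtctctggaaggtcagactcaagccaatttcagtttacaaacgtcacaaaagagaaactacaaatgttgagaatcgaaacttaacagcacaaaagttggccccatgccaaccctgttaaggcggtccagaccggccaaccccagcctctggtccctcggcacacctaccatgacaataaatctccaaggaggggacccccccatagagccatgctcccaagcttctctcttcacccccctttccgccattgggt

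A level below is the number of UMIs (unique molecular identifiers, 1 per captured RNA molecule) of a gene, summed over the cells of 1 gate in 1 library and scaled to 1000000 UMIs of that gate (CPM). Such 3′ counts tally molecules and are not scaled to gene length. Barcodes with at least 1000 UMIs and at most 25% mitochondrial UMIs were kept, 4679 in Control and 3411 in IR, with medians of 7302 and 8266 UMIs. Fixed marker lists placed 3557 and 2454 of them in 1 lineage. The barcodes that carried markers of more than 1 lineage, 16.2% in Control and 20.4% in IR, were left out of the gates, and 6 barcode sequences were shared by the libraries. Although the sample records name the narrower phenotype CD45+CD11b+Ly6Chi, T cell-like, NK cell-like and collagen-expressing cells were present. The collagen-expressing cells are called fibroblast-like after their marker list, yet Ptprc, the gene of CD45, was nearly absent from them, at 2.15 CPM without and 1.75 CPM with radiation, and Sox9 and Tubb3 were among their leading genes. The gates held 675 and 821 monocyte-gate cells, 1857 and 500 macrophage-gate cells, 31 and 174 neutrophil-like cells, 127 and 138 DC-like cells, 257 and 345 NK cell-like cells, 416 and 249 T cell-like cells, 36 and 62 basophil or mast cell-like cells and 80 and 97 fibroblast-like cells, in Control and IR. Not described one by one, but included in values over all gated cells, are 56 and 46 cells that the monocyte and C1q genes did not split, 13 and 8 B cell-like cells and 9 and 14 plasmacytoid DC-like cells.

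Summed over the 6 members, the OAS level was higher in IR in 7 of the 8 gates described, the basophil or mast cell-like gate having too few UMIs for a fold. Neutrophil-like cells had the highest summed level in both libraries, 501 CPM from 27 UMIs without radiation (330.2 to 729) and 970.5 CPM with it (881 to 1066). This ranking is relative to the RNA of each gate, and these cells held few UMIs each, with medians of 1753 and 2454. Monocyte-gate cells came next, their sum being 207 CPM (194 to 220.0) and 554 CPM (537 to 571). In macrophage-gate cells it was 111 CPM (106 to 116) and 424 CPM (407 to 442). These 3 gates stood above the other 5 described in both libraries. The cells in which the monocyte and C1q genes tied had 152 CPM (115 to 198) and 393 CPM (328 to 466). Cd209a, a marker of the DC list, was among their leading genes in both libraries, so they need not be intermediates of monocytes and macrophages. The sum in DC-like cells was 64.4 CPM (49.8 to 81.9) without and 267 CPM (240.1 to 296) with radiation, and in fibroblast-like cells 63.5 CPM (52.6 to 76.0) and 282 CPM (264 to 300.3). These neighbours did not differ beyond counting error in either library. Lymphocytes were lower, T cell-like cells at 23.6 CPM (17.7 to 30.8) and 84.5 CPM (71.5 to 99.3), NK cell-like cells at 22.8 CPM (16.4 to 30.9) and 78.0 CPM (68.9 to 88.0), again a pair that could not be ordered. Basophil or mast cell-like cells gave 3 UMIs in Control and 8 in IR, and in IR their 36.4 CPM (15.7 to 71.8) was below that of NK cell-like cells beyond counting error (0.467-fold, 0.20 to 0.933). Apart from this gate, the order was nearly the same with and without radiation, while the levels were not.

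**Figure D1:**
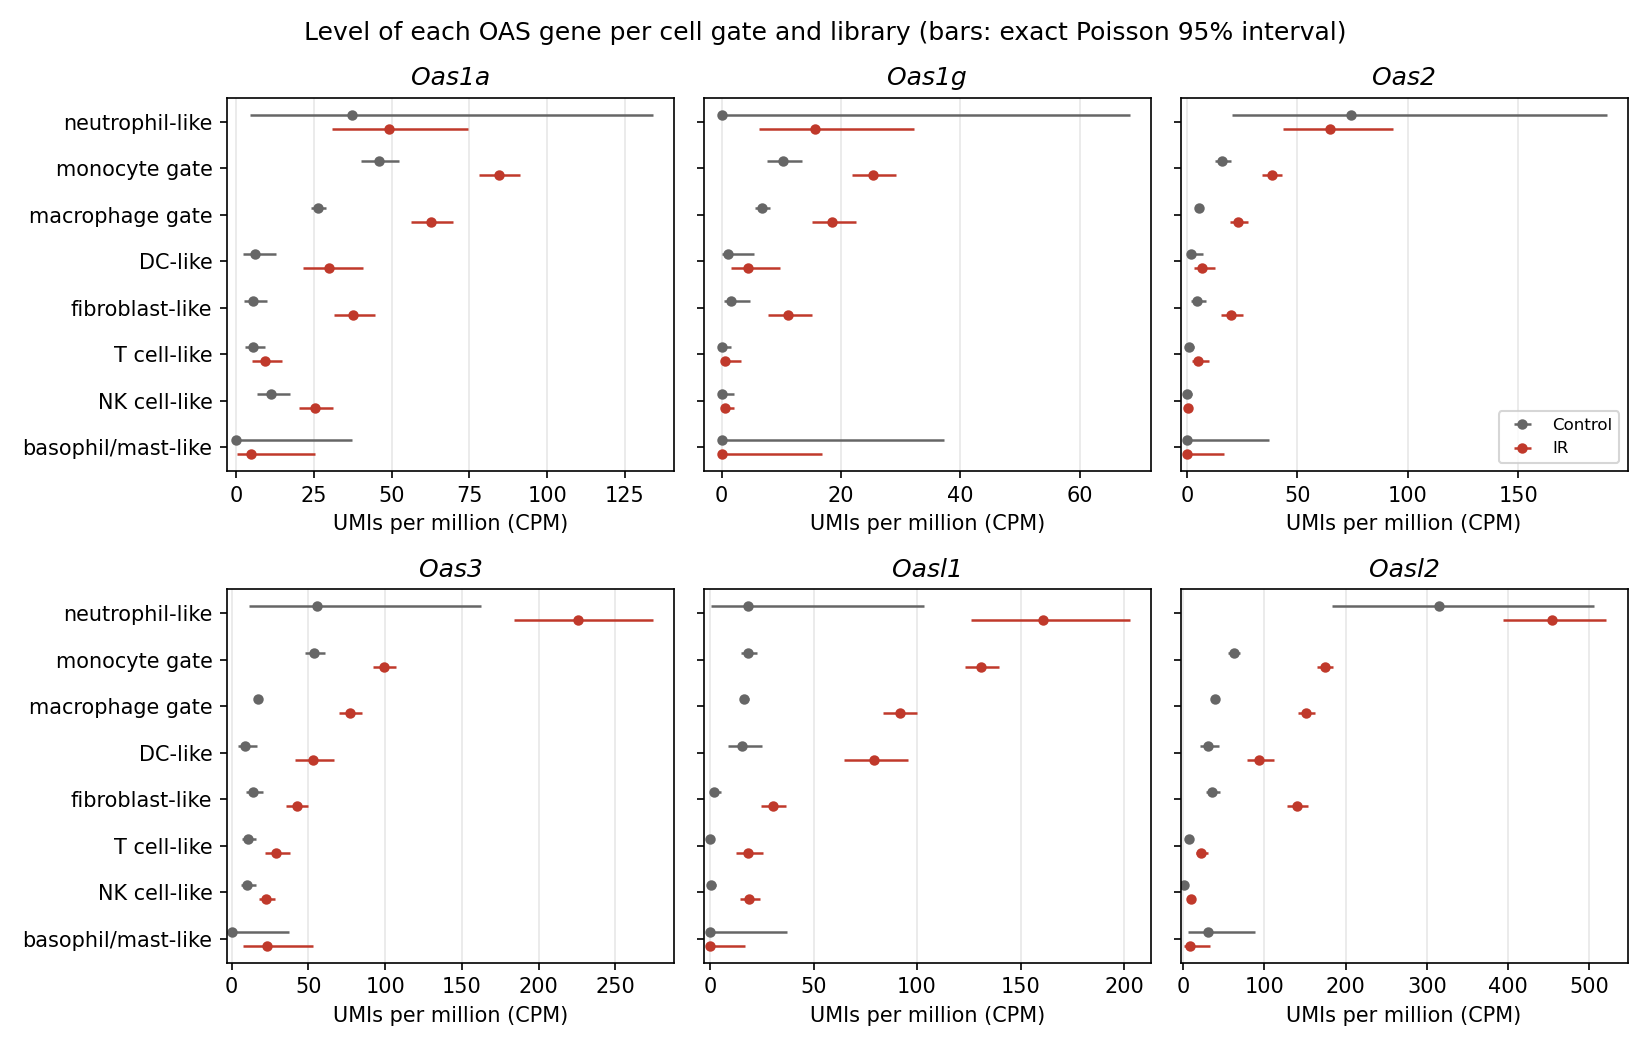
Level of each OAS gene in CPM (x axis, a linear scale of its own in each panel) in the 8 cell gates (rows), in the Control library (grey) and the IR library (red). Points are levels and bars exact Poisson intervals. Neutrophil-like cells lead for Oas2, Oas3, Oasl1 and Oasl2 in IR, for Oasl1 not beyond counting error against monocyte-gate cells (1.23-fold, 0.95 to 1.56). Oas2 and Oas1g are close to 0 in NK cell-like cells in both libraries.

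Over all gated cells together the 6 members went from 110.3 CPM in Control to 365 CPM in IR, a log2 ratio of 1.73 (1.67 to 1.78). Because the IR library held more monocyte-gate and neutrophil-like cells and fewer macrophage-gate cells, the ratio was computed again with every lineage given the same share of UMIs in both libraries. It was then 1.70 (1.63 to 1.76), a value for equal shares of the gates. The makeup within a gate was not held equal. The C1q genes of macrophage-gate cells, for example, stood at 7851 CPM in Control and 5626 CPM in IR. The source of the molecules moved with the shares of the gates. Macrophage-gate cells gave 58.2% of the OAS UMIs in Control and 26.2% in IR, whereas monocyte-gate cells gave 30.5% and 47.3%. Fibroblast-like cells gave 3.63% and 11.1%.

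In monocyte-gate cells, which express Chil3, Hp and Plac8, the 6 members together were 2.68-fold higher in IR (2.5 to 2.87). All 6 members reached 20 UMIs summed over both libraries. Of them, 4 were at least 2-fold higher in IR, against 2.4% of all 10230 genes with that many UMIs. Oasl1 stood out, at 18.5 CPM in Control and 131 CPM in IR, a 7.08-fold difference (5.69 to 8.89). Oasl2 was the most abundant by UMIs in both libraries, with 62.5 CPM and 175 CPM. Its log2 ratio was 1.48 (1.30 to 1.67). The short synthetase Oas1g went from 10.2 to 25.3 CPM (log2 ratio 1.31, 0.85 to 1.80) and Oas2 from 15.8 to 38.4 CPM (1.28, 0.91 to 1.66). Oas1a, at 45.8 and 84.5 CPM, and Oas3, at 53.9 and 99.4 CPM, both had a log2 ratio of 0.88, under the 2-fold limit but with intervals above 0 (0.66 to 1.11 and 0.68 to 1.09). The median log2 ratio of the members was 1.30, beside -0.08 for all genes tested in this gate.

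In macrophage-gate cells, marked by the complement genes C1qa, C1qb and C1qc, the summed level was 3.81-fold higher in IR (3.59 to 4.06). Each of the 6 members was at least 2-fold higher, against 3.24% of 11373 genes, with a median log2 ratio of 2.0 beside -0.09 for all genes. Oasl1 again had the largest ratio, from 16.6 to 91.6 CPM (5.53-fold, 4.77 to 6.42). Oas3, the synthetase with the most repeated units, followed with 16.9 and 77.2 CPM (4.56-fold, 3.91 to 5.32). Oas2 went from 5.58 to 23.1 CPM (4.14-fold, 3.15 to 5.47) and Oasl2 from 39.2 to 151 CPM (3.86-fold, 3.48 to 4.28). The pair of short synthetases had the smallest ratios, with 26.3 and 62.5 CPM for Oas1a (2.38-fold, 2.06 to 2.75) and 6.70 and 18.5 CPM for Oas1g (2.76-fold, 2.09 to 3.64).

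The monocyte and macrophage gates differed in Control and came closer in IR. The 6 members together were 1.86-fold higher in monocyte-gate than in macrophage-gate cells in Control (1.72 to 2.01) and 1.30-fold higher in IR (1.24 to 1.37). With Ly6c2, Plac8 and Ms4a4c among the monocyte genes of the gate, the log2 differences were 1.0 in Control and 0.69 in IR in place of 0.89 and 0.38. Oas3 separated them most in Control, by 3.19-fold (2.68 to 3.78), and then only by 1.29-fold in IR (1.14 to 1.46). Oas2 differed by 2.83-fold (2.07 to 3.87) and 1.66-fold (1.34 to 2.07). Oasl1 went the other way. Its levels in Control did not differ between the gates beyond counting error (1.12-fold, 0.87 to 1.42), and in IR it was 1.43-fold higher in monocyte-gate cells (1.28 to 1.60). The log2 ratio of IR over Control in monocyte-gate cells minus that in macrophage-gate cells was -0.51 for the sum (-0.64 to -0.38). For Oas3 this difference was -1.31 (-1.60 to -1.01), whereas for Oasl1 it was 0.36, with an interval of -0.02 to 0.73 that includes 0.

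**Figure D2:**
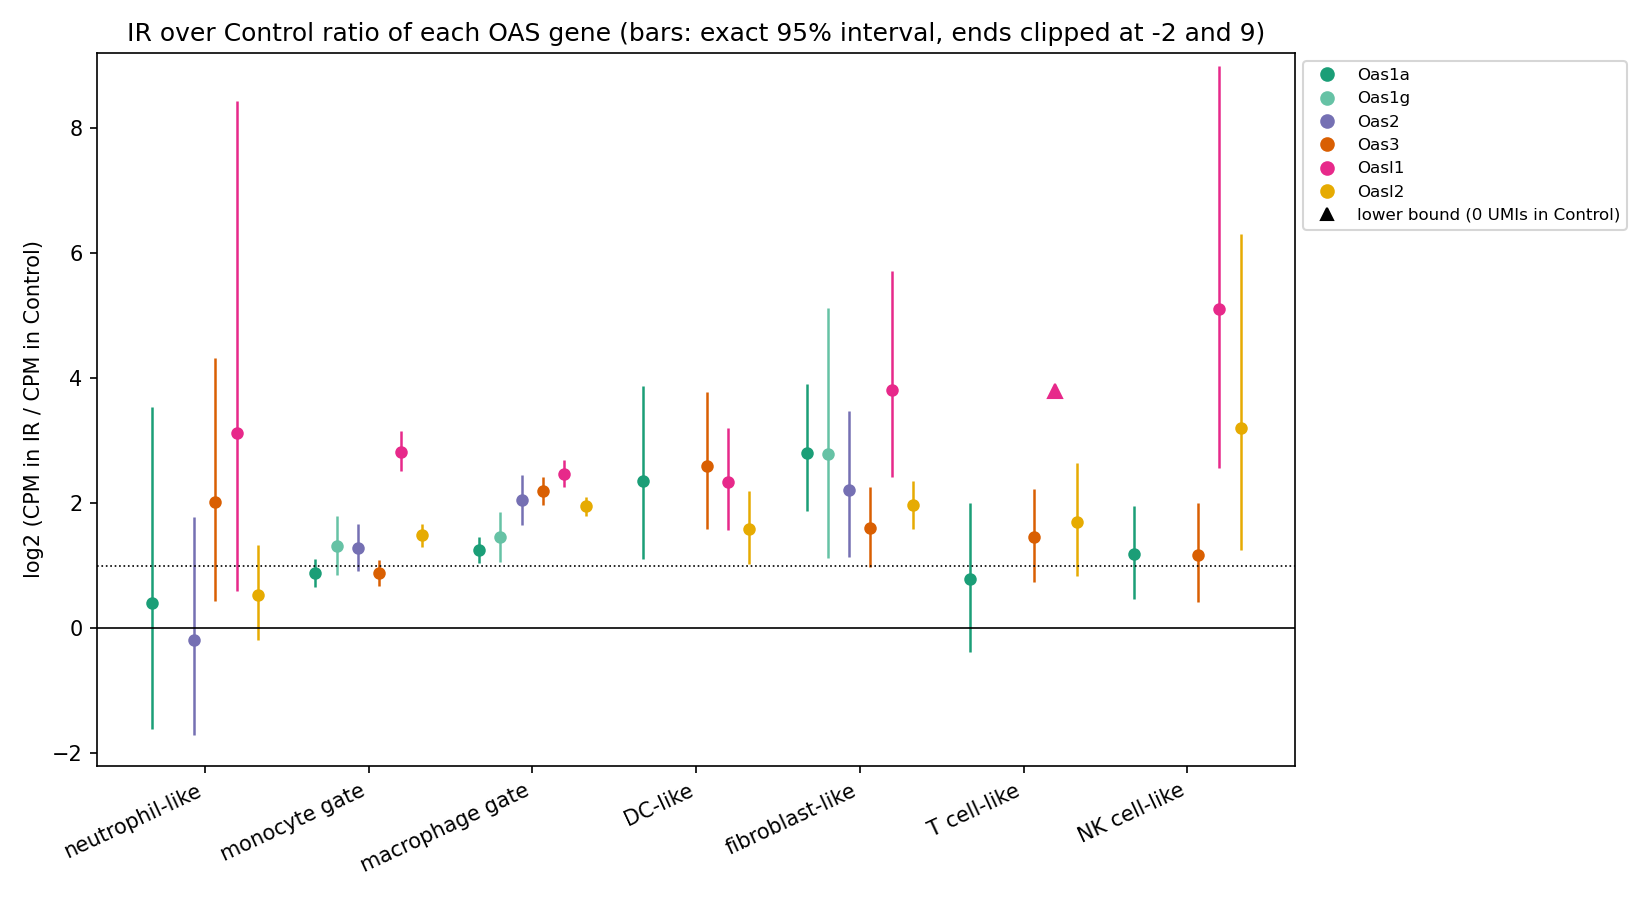
log2 ratio of CPM in IR over CPM in Control (y axis) for each OAS gene with at least 20 UMIs, by cell gate (x axis); bars are exact conditional intervals, the solid line marks no difference and the dotted line a 2-fold difference. Oasl1 (pink) lies highest in 6 of the 7 gates, the DC-like gate being the exception. The triangle, named lower bound in the legend, is the Oasl1 ratio in T cell-like cells with 3 counts taken for the 0 UMIs in Control.

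DC-like cells were mostly mature DCs, with Ccr7, Fscn1 and Ccl22 leading in both libraries. The 6 members together were 4.15-fold higher in IR (3.18 to 5.48). The 4 members with at least 20 UMIs were all at least 2-fold higher, against 4.59% of 7030 genes. Only Oasl2 reached 20 UMIs in Control, so the others passed this minimum through their IR counts. Oas3 had 9 and 71 UMIs, or 8.78 and 53.0 CPM (log2 ratio 2.59, 1.59 to 3.78). Oas1a had 6 and 40 UMIs, or 5.85 and 29.8 CPM (2.35, 1.10 to 3.88). Both synthetases had larger ratios here than in monocyte-gate cells, whose log2 ratio minus that of DC-like cells was -1.71 for Oas3 (-2.73 to -0.69) and -1.47 for Oas1a (-2.72 to -0.21). Oasl1 had 15.6 and 79.1 CPM (2.34, 1.58 to 3.20) and Oasl2 31.2 and 94 CPM (1.59, 1.02 to 2.20). Oas1g, with 1 and 6 UMIs, and Oas2, with 2 and 9, were too scarce to count. The cells with more markers of mature DCs had a sum of 68.4 CPM (51.8 to 88.7) without and 269.7 CPM (241 to 301) with radiation.

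NK cell-like cells, led by granzyme genes, held a mix of OAS genes unlike that of monocyte-gate cells and partly shared by T cell-like cells. In NK cell-like cells Oas1a and Oas3 gave 20 and 18 of the 41 OAS UMIs in Control, and Oasl2 gave only 2. Oas1g and Oas2 had 0 UMIs in Control, with an upper limit of 2.05 CPM each, and 2 and 1 UMIs in IR. By contrast, Oasl2 gave 300 of the 993 OAS UMIs of monocyte-gate cells and 159 of the 455 OAS UMIs of near-empty droplets in the same library. In T cell-like cells of Control, Oas1a and Oas3 gave 12 and 24 of the 54 OAS UMIs and Oas1g and Oas2 gave 0 and 2. Oasl2 gave 16 there, more than in NK cell-like cells. The summed level of NK cell-like cells was 3.42-fold higher in IR (2.46 to 4.88). All 4 members with at least 20 UMIs were at least 2-fold higher, against 2.57% of 8937 genes. Only Oas1a reached 20 UMIs in Control, so the others passed this minimum through their IR counts. Oasl1 went from 1 UMI to 65, a ratio of 34.3 whose counting interval runs from 5.94 to 1374, and Oasl2 from 2 UMIs to 35, a ratio of 9.23 (2.37 to 79.2). With free RNA subtracted, the log2 ratios of Oasl1 and Oasl2 were 5.72 and 4.04 in place of 5.10 and 3.21. Oas1a, at 11.1 and 25.2 CPM (2.27-fold, 1.38 to 3.89), and Oas3, at 10.0 and 22.6 CPM (2.26-fold, 1.34 to 4.0), differed less. After radiation Oasl1 made up 24.4% of the OAS UMIs (19.4 to 30.1) in these cells.

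In T cell-like cells, led by the CD3 genes with Cd8a and Cd8b1, the summed level was 3.58-fold higher in IR (2.61 to 4.99). Of 4 members with at least 20 UMIs, 3 were at least 2-fold higher, against 2.03% of 8879 genes. Only Oas3 reached 20 UMIs in Control, so the others passed this minimum only with their IR counts. Oasl1 had 0 UMIs among 2289017 in Control and 32 in IR, at least 13.85-fold higher when the floor of 3 counts in the Control library is used, with an exact lower limit of 10.6-fold. Oas3 went from 10.5 to 28.9 CPM (2.76-fold, 1.67 to 4.69) and Oasl2 from 6.99 to 22.7 CPM (3.25-fold, 1.78 to 6.21). Oas1a, with 12 and 16 UMIs, did not differ beyond counting error (log2 ratio 0.79, -0.38 to 2.0), but reached 1.81 with the mixed barcodes kept. The median log2 ratio was 1.46 over the members with a finite ratio and 1.58 with Oasl1 set at 13.85-fold, beside -0.04 for all genes. Oas2 had 2 and 9 UMIs, and Oas1g 0 and 1. In IR the T cell-like cells had more Oas2 than the NK cell-like cells, with 9 UMIs against 1, and less Oas1a, which was 2.78-fold higher in NK cell-like cells (1.62 to 5.08).

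RNA of other cells was measurable in both lymphocyte gates and differed between the libraries. The C1q genes, which lymphocytes do not make, stood at 63.4 CPM in Control and 12.9 CPM in IR in NK cell-like cells, and at 87.8 and 23.8 CPM in T cell-like cells. Gauged from these genes, free RNA came to 6.65% of the OAS UMIs of NK cell-like cells in Control and 2.77% in IR, and to 8.90% and 4.73% in T cell-like cells. With this part subtracted the log2 ratio was 1.82 in place of 1.77 in NK cell-like cells and 1.90 in place of 1.84 in T cell-like cells. The gauge rests on the C1q genes and the near-empty droplets, and does not cover RNA from doublets or attached cells.

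**Figure D3:**
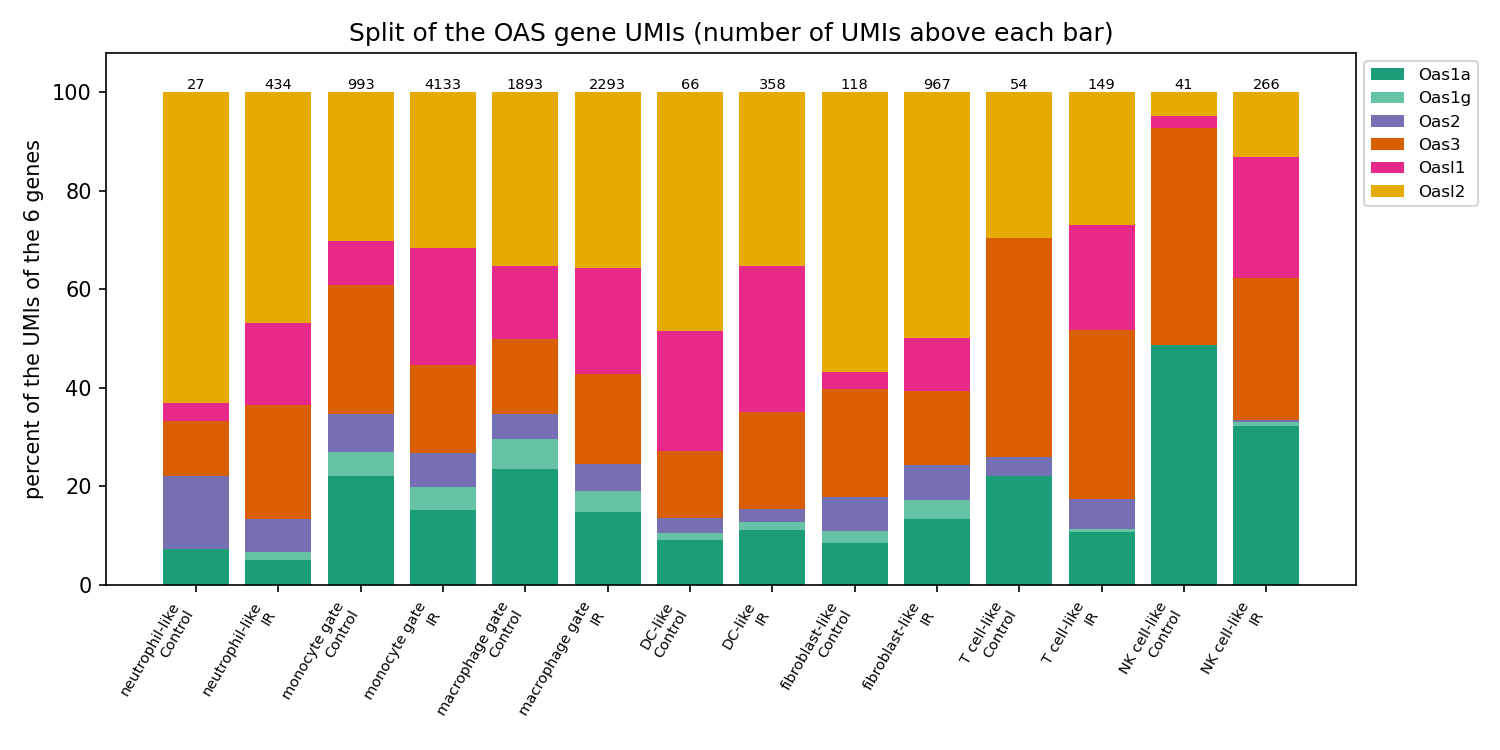
Share of the UMIs of the 6 OAS genes that each gene gave (y axis, percent) in 7 cell gates of the Control and IR libraries, with the number of OAS UMIs above each bar. Oas1a and Oas3 fill most of the Control bars of NK cell-like and T cell-like cells. Oasl2 makes up 46.8% and 49.9% of the IR bars of neutrophil-like and fibroblast-like cells, and the Oasl1 part is larger in IR in every gate shown.

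Neutrophil-like cells, with S100a8, S100a9 and Retnlg leading, had the highest summed CPM but gave the least certain ratios, since Control held 31 such cells with 53880 UMIs in all. The summed level was 1.94-fold higher in IR (1.31 to 2.97). Only 2 of the 5 members with at least 20 UMIs were at least 2-fold higher, against 14.7% of 2290 genes, a background so high that little can be read from the count. Oas3 had 3 and 101 UMIs (ratio 4.06, 1.35 to 20.0) and Oasl1 had 1 and 72 (ratio 8.67, 1.51 to 347). The log2 ratio of Oasl1, 3.12 as reported, was 1.14 in cells of at least 2000 UMIs and 1.69 with the mixed barcodes kept. Oasl2, the leading member here with 17 and 203 UMIs, did not differ beyond counting error (log2 ratio 0.52, -0.19 to 1.33). Oas2 had a log2 ratio of -0.20 (-1.70 to 1.77), which turned to 0.37 with TMM scaling and to 0.02 with the mixed barcodes kept, and was -1.34 in cells of at least 2000 UMIs. Oas1a, at 0.41 (-1.62 to 3.54), was 1.11 with the mixed barcodes kept. TMM scaling (trimmed mean of M-values) moved every ratio of this gate by 0.56, and the sum then had a log2 ratio of 1.52 in place of 0.95. Within IR, where 174 cells were counted, the summed level was 1.75-fold that of monocyte-gate cells (1.58 to 1.94), and Oasl2 gave 46.8% of it (42.0 to 51.6).

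Fibroblast-like cells, which had almost no Ptprc, had the largest ratio of the summed level, 4.44-fold (3.66 to 5.42). All 6 members were at least 2-fold higher in IR, against 3.28% of 10162 genes, with a median log2 ratio of 2.49 beside -0.05 for all genes. Only Oas3 and Oasl2 reached 20 UMIs in Control, so the others passed the minimum of 20 UMIs through their IR counts. Oasl2 was the leading member, with 36.1 CPM in Control and 141 CPM in IR (3.91-fold, 3.02 to 5.12). Oasl1 went from 4 UMIs to 104, or 2.15 to 30.3 CPM (14.1-fold, 5.34 to 52.7), and its log2 ratio of 3.82 was 4.91 without the 6% of barcodes with the highest Scrublet doublet scores. Oas1a had 10 and 129 UMIs, or 5.38 and 37.6 CPM (6.99-fold, 3.68 to 14.9). Both genes thus had a wide gap between the libraries, and the log2 ratio of Oas1a in monocyte-gate cells minus that in fibroblast-like cells was -1.92 (-2.88 to -0.97). Oas1g had 3 and 38 UMIs, a ratio of 6.86 (2.18 to 34.8), Oas2 had 8 and 68 UMIs (4.61-fold, 2.21 to 11.1), and Oas3 had 26 and 145 UMIs (3.02-fold, 1.98 to 4.78). The fibroblast-like cells were large, with medians of 21891 UMIs in Control and 33444 in IR. In the same cells the C1q genes stood at 29.1 and 2.92 CPM, and free RNA so gauged came to 1.09% and 0.173% of their OAS UMIs.

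Among the 21 pairs of the 7 gates, the log2 ratio of the summed level differed beyond counting error in 8. Of these, 5 set neutrophil-like cells below another gate and 3 set monocyte-gate cells below macrophage-gate, DC-like or fibroblast-like cells. Macrophage-gate and NK cell-like cells, by contrast, differed by 0.16 (-0.33 to 0.64), although the level of the former was several times higher. All these differences used plain CPM. TMM scaling raised the log2 ratio by 0.56 in neutrophil-like cells and by at most 0.09 in the other gates of these pairs. The 5 neutrophil-like differences would thus be smaller under it, and whether they stay beyond counting error was not tested.

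The share of cells with a UMI of any OAS gene was compared after each cell was thinned at random to 1000 UMIs, so that depth was equal. It was 17.9% in Control (15.1 to 21.0) and 39.3% in IR (36.0 to 42.8) of monocyte-gate cells, and 12.2% (10.7 to 13.7) and 35.2% (31.0 to 39.6) of macrophage-gate cells. Without thinning the shares were 55.7% and 85.0%, and 44.3% and 83.2%. Neutrophil-like cells reached 25.8% (11.9 to 44.6) and 52.3% (44.6 to 59.9), DC-like cells 5.51% (2.24 to 11) and 22.5% (15.8 to 30.3), and fibroblast-like cells 7.50% (2.80 to 15.6) and 23.7% (15.7 to 33.4). No gate is known to lack these genes. The basophil or mast cell-like cells were taken for comparison because they had the fewest OAS UMIs of the gates described. They had 3 of 36 cells (8.33%, 1.75 to 22.5) and 1 of 62 (1.61%, 0.04 to 8.66), at medians of 2548 and 3313 UMIs before thinning. The thinned shares of NK cell-like cells, 1.56% (0.43 to 3.94) and 8.41% (5.70 to 11.8), and of T cell-like cells, 2.16% (0.99 to 4.07) and 8.43% (5.30 to 12.6), overlapped with these intervals in both libraries. In Control the shares of all other gates overlapped with the basophil or mast cell-like interval too, so no expression is read from a Control share by itself. In IR the lower limits of the monocyte-gate, macrophage-gate, neutrophil-like, DC-like and fibroblast-like shares lay above that gate's upper limit of 8.66%. Since that gate was picked for its low count in these same data, this order partly follows from the choice, and expression is not read from it. Nor was that gate free of OAS UMIs, which 11.3% of its IR cells held without thinning. The medians before thinning were 6002 and 6459 UMIs in NK cell-like cells and 4290 and 5036 UMIs in T cell-like cells. Over 20 further random thinnings the IR share was higher in all 20 in each of the monocyte-gate, macrophage-gate, DC-like, NK cell-like, T cell-like and fibroblast-like cells.

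**Figure D4:**
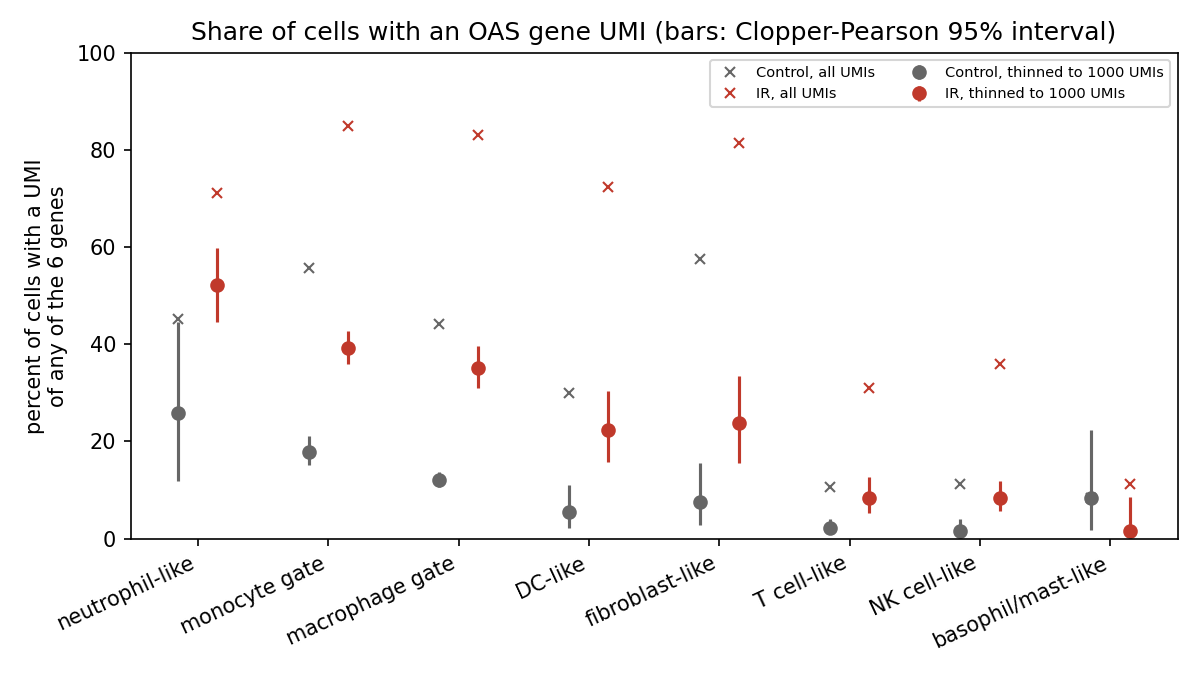
Percent of cells with at least 1 UMI of any of the 6 OAS genes (y axis) in the 8 cell gates (x axis), in Control (grey) and IR (red). Circles with Clopper-Pearson intervals are cells thinned to 1000 UMIs and crosses are the same cells with all their UMIs; the monocyte-gate share is 17.9% and 39.3% after thinning.

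In monocyte-gate and macrophage-gate cells, OAS molecules were spread over many cells, and a larger share carried several at once in IR than in Control. Such shares rise with the mean level by counting alone. That mean was 0.243 OAS UMIs per monocyte-gate cell in Control and 0.644 in IR. At 1000 UMIs per cell, monocyte-gate cells with 3 or more OAS UMIs made up 0.889% in Control and 6.21% in IR, and those with UMIs of at least 2 different members 3.56% and 12.5%. In macrophage-gate cells the latter share was 1.51% and 8.20%. The variance of the OAS UMIs per cell was 1.45 times their mean in Control and 1.57 times in IR in monocyte-gate cells, where counting alone gives a value of 1. In NK cell-like cells it was 0.988 and 1.2.

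Other genes that act on the pathway did not move as one. Abce1, an ATP-binding protein that recycles ribosomes, and Pde12 and Akap7, which degrade the oligoadenylates, did not reach 2-fold in either direction in monocyte-gate or macrophage-gate cells, where 3.45% and 5.78% of all genes were at least 2-fold lower in IR. Abce1 was lower in IR in monocyte-gate cells, at 40.2 and 26.4 CPM (-0.61, -0.90 to -0.31), and in macrophage-gate cells, at 44.1 and 33.9 CPM (-0.38, -0.62 to -0.15). It was also lower in T cell-like cells, at 59.4 and 34.0 CPM (-0.80, -1.27 to -0.35). In DC-like cells it had 17 and 4 UMIs (-2.47, -4.50 to -0.86), at least 2-fold lower like 3.91% of all genes there. Pde12 was higher in fibroblast-like cells, at 10.2 and 21.0 CPM (1.04, 0.29 to 1.85). Of the other OAS genes in the files, only Oas1c was seen in monocyte-gate cells, with 14 and 42 UMIs (log2 ratio 0.95, 0.05 to 1.94), and Oas1d, Oas1e, Oas1f and Oas1h had 0 UMIs there in both libraries. Oas1c also had 47 and 38 UMIs in macrophage-gate cells (1.35, 0.69 to 2.0) and 2 and 23 UMIs in NK cell-like cells (2.60, 0.58 to 5.73).

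Among the other sensors of double-stranded RNA, all 7 listed genes in the files reached 20 UMIs in monocyte-gate and macrophage-gate cells. Of these, 2 were at least 2-fold higher in IR in monocyte-gate cells, against 2.4% of all genes, with a median log2 ratio of 0.95 beside -0.08. In macrophage-gate cells 4 were, against 3.24%, with a median of 1.29 beside -0.09. Ddx58, which encodes RIG-I, went from 25.4 to 58.7 CPM in monocyte-gate cells (1.21, 0.91 to 1.51). Ifih1, which encodes MDA5, went from 25.2 to 61.6 CPM in macrophage-gate cells (1.29, 1.08 to 1.5). Their adaptor Mavs did not differ beyond counting error in these gates (-0.19, -0.87 to 0.50, and -0.43, -0.92 to 0.03). In NK cell-like cells neither Ddx58 (0.24, -0.20 to 0.70) nor Ifih1 (0.37, -0.69 to 1.53) differed beyond counting error, while Eif2ak2, which encodes the kinase PKR, went from 9.46 to 24.6 CPM (1.38, 0.62 to 2.23).

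In the interferon signal list, 2 of 12 genes were at least 2-fold higher in monocyte-gate cells and 3 of 12 in macrophage-gate cells, against the same 2.4% and 3.24% of all genes. The list medians were 0.41 and 0.38, beside -0.08 and -0.09 for all genes. Irf7, a transcription factor for interferon genes and the known target of Oasl1, was at 134 and 539 CPM in monocyte-gate cells (log2 ratio 2.01, 1.89 to 2.13) and at 49.9 and 450 CPM in macrophage-gate cells (3.17, 3.06 to 3.29). Like the OAS sum, it had a larger ratio in macrophage-gate cells. Usp18, which dampens the interferon receptor, was at 21.0 and 93.6 CPM in monocyte-gate cells (2.15, 1.85 to 2.47). Of the interferon ligands, Ifnb1 had 4 UMIs in Control and 40 in IR in monocyte-gate cells (2.69, 1.22 to 4.63), 1 and 1 in macrophage-gate cells and 0 in DC-like, NK cell-like, T cell-like and fibroblast-like cells of both libraries. Ifng, the type II interferon, was lower in IR in T cell-like cells, at 379 and 190 CPM (-1.0, -1.19 to -0.82).

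**Figure D5:**
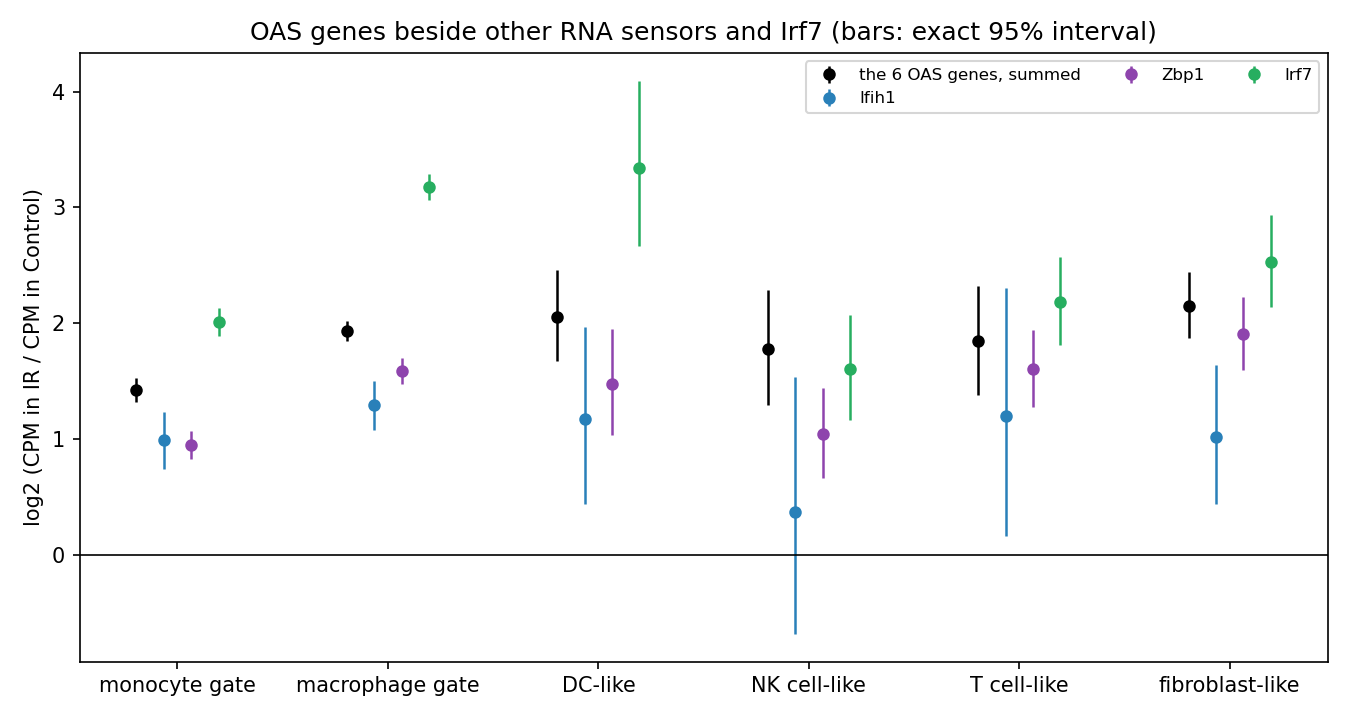
log2 ratio of CPM in IR over CPM in Control (y axis) of the 6 OAS genes summed and of Ifih1, Zbp1 and Irf7, in 6 cell gates (x axis), with exact 95% intervals. The OAS sum lies between 1.42 and 2.15 and Irf7 between 1.60 and 3.34.

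Across the 14 populations of at least 50 cells, which are gates of 2 shared libraries, the genes whose log2(CPM + 10) followed that of the OAS sum most closely were Zbp1 (Pearson r = 0.95) and Ifih1 (0.95), both sensors of foreign nucleic acid, then Ifit2 (0.94), Ifi204 (0.94), Stat2 (0.93) and Rsad2 (0.91), among 5469 genes. Among the members, the pair Oas2 and Oasl2 (0.94) and the pair Oas1a and Oas1g (0.93) were closest, the latter sharing sequence as stated above, and Oas1a and Oasl2 were farthest apart (0.78).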

How the data were processed

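Deposited were 2 unfiltered matrices of UMI counts, 1 for Control and 1 for IR, which the authors made with Cell Ranger (6.0.1 in the submitters' processing notes, 4 in the matrix headers) on mm10 from 10x 3′ libraries. Total counts were 48593879 and 42406461. Barcodes with at least 1000 UMIs and at most 25% mt- UMIs were kept. A lineage counted as present in a barcode with 3 or more markers and at least 37.5% of its list. Barcodes with 1 lineage were gated, T and NK pairs went to the list ahead by 0.2, and monocyte and macrophage gates were split by 6 monocyte genes against C1qa, C1qb and C1qc. This scoring was set after the data were seen, and the members and lists were chosen with earlier results of these data known. The genes named are the members, the fixed pathway lists and the 6 nearest genes.

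Counts were summed per gate. CPM carries exact Poisson intervals, ratios of 2 sums exact conditional and shares Clopper-Pearson 95% intervals. Differences between log2 ratios and ratios at fixed lineage shares carry normal-approximation intervals. A gene counted as higher at 2-fold with at least 20 UMIs summed over both libraries. A gene scarce in Control can thus pass through its IR count alone, and the shares over all genes used the same minimum. No test between conditions was possible. The scripts were tested on simulated data. Doublets were left to the mixed class, since Scrublet (scanpy 1.11.5) called 1 and 3 barcodes on its own threshold, and alternatives also used TMM from edgeR. Python 3.11.15 and scipy 1.17.1 were used. Oas1b was not analysed here, RIG-I was read under its older symbol Ddx58, and some genes of the fixed lists are not reported here.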

Additional observations from a re-analysis of the deposited data

Results flagged for a closer look

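OAS genes were also counted in barcodes outside the cell gates, and their summed level was higher in IR in each of 3 such sets. In near-empty droplets, with 10 to 100 UMIs each, the sum was 105 CPM in Control (455 UMIs) and 267 CPM in IR (826 UMIs), a log2 ratio of 1.34 (1.17 to 1.51), and Oasl1 again had the largest ratio of the 6 (2.21, 1.80 to 2.65). In barcodes with markers of more than 1 lineage, 758 in Control and 696 in IR, the sum was 109 and 414 CPM, a log2 ratio of 1.92 (1.83 to 2.02), with Oas2 the largest (2.23, 1.82 to 2.66) and Oasl1 next (2.18, 1.96 to 2.41). In barcodes with too few markers for a gate, 364 and 261, the sum was 105 and 317 CPM, a log2 ratio of 1.59 (1.32 to 1.86). There Oas2 was again the largest (2.89, 1.52 to 4.61), and Oasl1 (1.51, 0.96 to 2.09) was above only Oas1a (1.04, 0.45 to 1.64). The share of these 3 signals that comes from the gated cell types was not tested.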

How the results depend on the processing

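No paired analysis was possible because each condition had a single library. Among alternative values of the summed levels, counts and shares, 154 stayed within the interval of the reported value, or within 1.5 times a count, 15 did not, and none changed direction. With Ly6c2, Plac8 and Ms4a4c in the monocyte gate, the log2 ratio of the sum was 1.72 in macrophage-gate cells and 1.58 over all gated cells at fixed lineage shares, and monocyte-gate over macrophage-gate cells was 0.69 in IR. At fixed shares it was 1.63 without mt-, Rpl and Rps genes in the total and 1.79 with TMM scaling, and as counted it was 1.79 with mixed barcodes kept. With mixed barcodes kept, 4 members were at least 2-fold higher in neutrophil-like and 6 in T cell-like cells. A minimum of 100 UMIs left 1 member higher in neutrophil-like, 2 in DC-like, 1 in NK cell-like and 0 in T cell-like cells, since fewer members reach it. Without thinning, the ratio of the share of cells with an OAS UMI was 1.53 in monocyte-gate and 1.88 in macrophage-gate cells, since deeper cells approach the ceiling. In droplets of 5 to 50 UMIs the log2 ratio was 1.02. Except where an alternative's construction is named here, the cause was not tested. Of 281 alternative values of single members, 279 kept their sign, the exceptions being the 2 for Oas2 in neutrophil-like cells. Depth limits the neutrophil-like Control cells (27 OAS UMIs) and the basophil or mast cell-like cells, and no setting replaces a second library.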
